A study of Mus musculus with 4 samples.

Results

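The genes of the mitochondrial respiratory chain and the ATP synthase were examined in mouse liver. Members were the genes whose single symbol in the platform annotation starts with Nduf, Uqcr or Atp5, with Sdh followed by a, b, c or d, or with Cox followed by a digit of the set 4, 5, 6, 7 and 8, together with Cycs. The rule gave 74 of the 8251 genes with a single symbol on the array. Where a gene had several probe sets, the one with the highest mean Signal over the 4 arrays stood for it. By name, 29 members belong to complex I, 4 to complex II, 7 to complex III, 15 to complex IV and 14 to the ATP synthase (complex V), with cytochrome c, 2 assembly factors of complex I and 2 of complex II. The symbol rule takes in these 4 assembly factors and Cox7a2l, which helps to join complexes III and IV, although none of them is a core subunit.

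The study used male C57BL/6 mice, and liver RNA was read on 4 Affymetrix MG_U74Av2 arrays, 1 for each combination of an operation and a time of day. The operated mice had bilateral adrenalectomy (ADX) by the dorsal approach under intramuscular ketamine (91 mg per kg of body weight) and xylazine (3.6 mg per kg), and afterwards drank 0.9% NaCl and ate CE-2 chow. Sham-operated mice ate standard chow and drank water. Livers came from zeitgeber time (ZT) 14 or ZT2, in hours after lights on. The groups were therefore ADX ZT14, ADX ZT2, sham ZT14 and sham ZT2, with 1 array each. The labels give no genotype beyond the strain, no age, and not the number of animals behind an array. With 1 array per group no difference between arrays had a replicate check, and sizes below are descriptions unless a fit is named. The comparisons ask how the liver at ZT14 differs from ZT2 in ADX and in sham mice, and how ADX and sham mice differ at each time. Drink and chow differed along with the operation, so the 3 cannot be told apart in ADX against sham.

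The respiratory chain passes electrons from NADH (complex I) and succinate (complex II) through ubiquinone to complex III, then by cytochrome c to complex IV, where oxygen is reduced. Complexes I, III and IV pump protons across the inner mitochondrial membrane, and the ATP synthase uses the return flow to make ATP. Subunits come from nuclear genes, which these members are, and from the mitochondrial genome, whose genes carry no symbol in the annotation used here. In hepatocytes this ATP pays for glucose output and urea synthesis, and many of the nuclear genes are known targets of the transcription factors NRF1 and GABP.

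The arrays had similar quality. Present calls, the Affymetrix statement that a probe set lies above its mismatch background, covered 44.4% to 47% of probe sets. The ratio of 3' to 5' signal was 1.69 to 1.89 for actin and 0.91 to 1.03 for Gapdh. Of 9 hepatocyte markers on the array, 9 were Present on all 4 arrays. Of 11 skeletal and heart muscle markers, 0 were Present on all 4 arrays, the summed signal was 69.8 to 102.1 units per array, and Ckm was Absent on all 4. Of 3 red cell markers on the array, haemoglobin Hba-a1 had 1789 and 1261 units at ZT14 and ZT2 in ADX mice, against 874 and 1552 in sham mice. Alas2, the haem enzyme of red cells, did not follow it, with 171 and 208 units at ZT14 and ZT2 in ADX mice, against 178 and 202 in sham mice, and Slc4a1 was Absent on all 4 arrays. The part of Hba-a1 in the results was not tested.

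Most of the respiratory chain was detected on every array. Of the 74 members, 58 (78.4%) were Present on all 4 arrays, against 47.1% of all genes, 3 on some arrays and 13 on none. In 45 members the mean scaled Signal was at least 200 units (60.8%), against 10.4% of all genes. Signal was scaled so that the arrays had a common trimmed mean, and it is given here in these scaled units. The brightness of a probe set depends on its probes, so levels are compared between arrays and never between genes. Complex I had 24 of 29 members Present on all arrays, complex II 4 of 4, complex III 7 of 7, complex IV 7 of 15 and complex V 11 of 14.

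Some of the undetected members are forms that other tissues use. Cox6a2, Cox7a1 and Cox8b, the heart and muscle forms of complex IV subunits, and Cox8c, a form known from testis, were Present on no array. Their partners Cox6a1 and Cox7a2, the forms that liver uses, were Present on all 4 arrays, with 1316 and 1465 units at ZT14 and ZT2 in ADX mice, against 1523 and 1692 in sham mice for Cox6a1. The liver form Cox7a2 had 694 and 755 units at ZT14 and ZT2 in ADX mice, against 795 and 755 in sham mice. Cox5a, Cox6b1, Cox8a, Atp5g1, Atp5pb, Ndufa1, Ndufa10, Ndufa12 and Ndufc2 were also Present on no array, and these encode general subunits rather than forms of another tissue. A missing Present call is thus a statement about a probe set and gave no level for these 13 members. All 13 stay out of the comparisons. Their unfiltered signals reached at most 53.7 units, for Cox8c on the ADX ZT14 array.

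The detected members differed little between the 4 arrays. For the 58 members that were Present throughout, the highest array exceeded the lowest by 2.94% to 38.7%, with a median of 20.2%, against a median of 36% over the 3889 genes Present on all arrays. All 58 had a range under 50%, as did 68.5% of those genes, and 40 of the 58 (69%) had a range under 25%, as did 30.7% of the genes. Brighter probe sets vary less on these arrays, so the 45 bright members were set beside the 857 genes of the same brightness that were Present on all arrays. Their median range was 18%, against 24.7% for those genes, of which 51% had a range under 25%. No test was run for this contrast, and the arrays hold no repeat of a group from which a spread within a group could be read. Bulk RNA cannot tell fewer cells of a type from less RNA per cell.

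**Figure D1:**
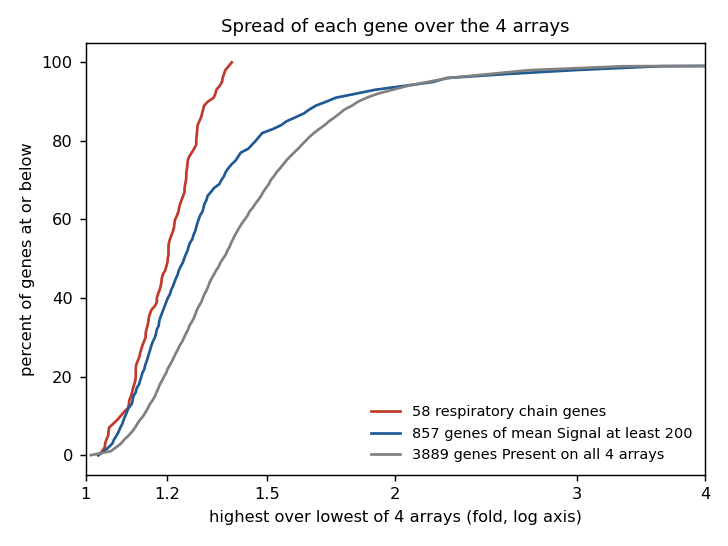
Cumulative percent of genes (vertical axis) against the ratio of the highest to the lowest of the 4 arrays (horizontal axis, fold, log scale), for the 58 detected members, the 857 genes Present on all arrays with mean Signal of at least 200, and the 3889 genes Present on all arrays. The curve of the members ends at 1.39-fold, where the others go on, and its median of 1.2-fold lies left of the 1.36-fold of all genes.

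By size, few members passed 1.5-fold in any comparison. A member counted as different at a size of at least 1.5-fold between the scaled signals of 2 arrays with a Present call on the brighter one, among the 61 members Present on at least 1 array. In ADX mice, ZT14 against ZT2 gave 2 of 61 members, where 15.1% of the 5007 genes Present on at least 1 array met the same rule. In sham mice, ZT14 against ZT2 gave 0 members against 15.8% of genes. ADX against sham gave 0 members at ZT14 (11.9% of genes) and 0 at ZT2 (8.97% of genes). Of the 857 bright genes, 76 in ADX and 82 in sham passed 1.5-fold between ZT14 and ZT2. For ADX against sham 40 of them passed at ZT14 and 13 at ZT2. Of the 45 bright members, 0 passed in any of these comparisons. At a smaller size of 25%, ZT14 against ZT2 gave 5 members in ADX (36% of genes) and 4 in sham (36.2%), and ADX against sham gave 2 at ZT14 (31.8%) and 3 at ZT2 (25.5%). Between ZT14 and ZT2, 210 of the 857 bright genes met this size in ADX and 204 in sham. The 45 bright members gave 1 and 2. For ADX against sham, 163 bright genes met it at ZT14 and 70 at ZT2. Bright members numbered 0 and 2 there. At 2-fold there were 0 members for ZT14 against ZT2 in ADX (4.63% of genes) and in sham (5.17%), and 0 for ADX against sham at ZT14 (3.14%) and ZT2 (2.14%).

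The 2 members past 1.5-fold were both dim, and neither was Present on every array. Atp5j2, subunit f of the ATP synthase, had 16.1 units on the ADX ZT14 array and 9.80 on ADX ZT2, against 12.3 on sham ZT14 and 11.6 on sham ZT2, with an Absent call only on the ADX ZT2 array, so ADX ZT14 exceeded ADX ZT2 by at least 1.64-fold. In sham mice its log2 difference between ZT14 and ZT2 was 0.09. Cox6b2, a testis form of a complex IV subunit, had 7.90 units on the ADX ZT14 array and 14.3 on ADX ZT2, against 8.99 on sham ZT14 and 12.5 on sham ZT2 and was Present on both ZT2 arrays and Absent on both ZT14 arrays. Its ADX ZT14 array was lower than ADX ZT2 by at least 1.81-fold, and the other Cox6b2 probe sets were Absent on all arrays. The third member detected on some arrays, Ndufa13 of complex I, was Present on both sham arrays and Marginal on both ADX arrays, and its signals differed little, with 196 and 209 units at ZT14 and ZT2 in ADX mice, against 177 and 205 in sham mice.

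The medians were near 0 in all 4 comparisons. Over the 61 members the median log2 difference was -0.03 for ZT14 against ZT2 in ADX and -0.07 in sham, beside 0.01 and 0.00 over the 5007 genes. It was -0.02 for ADX against sham at ZT14 and -0.07 at ZT2, beside 0.03 and 0.01 over the genes. Of the 58 members Present on all arrays, 31 were lower at ZT14 than at ZT2 in ADX (53.4%, against 49.9% of the 3889 genes) and 38 in sham (65.5%, against 51.6%). Lower in ADX than in sham were 34 at ZT14 (58.6%, against 47.6%) and 39 at ZT2 (67.2%, against 49.9%). Among the bright genes these 4 shares were 57.6%, 59.2%, 52.7% and 55.7%. The 45 bright members had 53.3%, 71.1%, 53.3% and 66.7%. All 4 counts of the 58 members depend on the scaling. With unscaled signals 36 members were lower at ZT14 in ADX and 49 in sham, and 48 and 53 were lower in ADX than in sham at ZT14 and ZT2. With quantile normalization these counts were 30, 32, 27 and 35. Over the 3889 genes the medians of the same 4 comparisons were -0.03, -0.09, -0.11 and -0.17 unscaled, so the genes as a whole moved too. With quantile normalization they were -0.01, -0.02, 0.01 and -0.01.

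**Figure D2:**
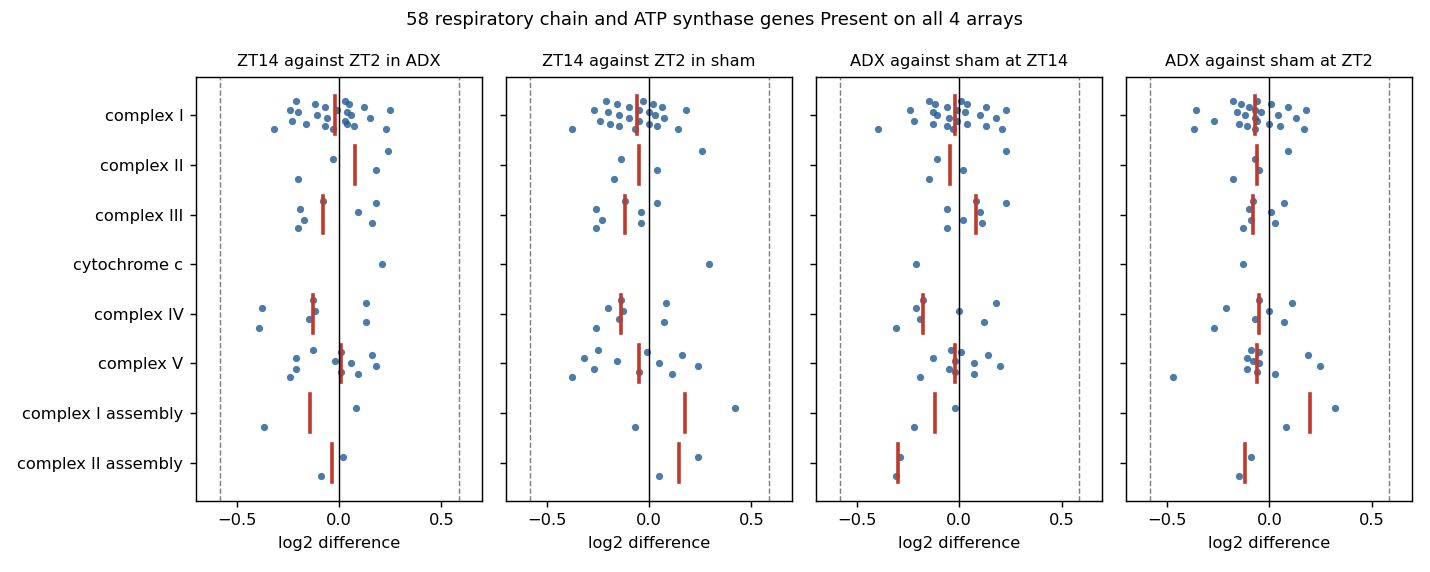
Log2 difference (horizontal axis) of each of the 58 members Present on all arrays, by complex (rows), in the 4 comparisons (panels); each point is 1 gene, the red bars are medians of groups of at least 2 genes, and the dashed lines mark 1.5-fold. Every point lies between the dashed lines, and the group medians lie near 0 on either side (for complex I -0.02 in ADX and -0.06 in sham between ZT14 and ZT2).

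The sham ZT2 array most often carried the highest signal. It was the highest of the 4 arrays in 26 of the 58 members (44.8%), where 25.3% of the 3889 genes and 32% of the bright genes had their highest value there. The ADX ZT14 array was the lowest in 21 members (36.2%), against 25.3% of the genes. No share of the bright genes and no other scaling stands beside that count. The same array was the highest in 11 members (19%, against 28% of the genes). With quantile normalization it was the highest in 18 (31%, against 26.9%). With quantile normalization the sham ZT2 array was highest in 21 members (36.2%), against 26.2% of the genes and 21% of the bright genes. With unscaled signals it was highest in 47 members (81%), against 47% of the genes and 64.3% of the bright genes, so the count depends on the scaling.

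Time of day was then read over both operations, by asking whether both ZT14 arrays lay on the same side of both ZT2 arrays. Both ZT14 arrays were below both ZT2 arrays in 21 of the 58 members (36.2%), against 24.6% of the genes and 32.4% of the bright genes. Of the 45 bright members this held for 17 (37.8%), so among genes of like brightness the share was near the background. Both ZT14 arrays were above in 9 members (15.5%), against 22.3% of the genes and 18.3% of the bright genes. With unscaled signals both ZT14 arrays were above in 2 members (3.45%, against 16.2% of the genes) and below in 15 (25.9%, against 26.4%), and with quantile normalization above in 10 (17.2%, against 20.5%) and below in 17 (29.3%, against 25.8%). The 9 were Atp5j, Cox7a2l, Cycs, Ndufa7, Ndufaf4, Ndufs3, Sdhc, Sdhd and Uqcrc1, of which 8 kept the pattern with quantile normalization (all but Ndufa7) and 1 with unscaled signals (Ndufaf4). For the operation, both ADX arrays were below both sham arrays in 11 members (19%, against 12.9% of the genes and 16.3% of the bright genes) and above in 7 (12.1%, against 16.1% and 12.3%). With unscaled signals 34 members had both ADX arrays below (58.6%, against 31.2% of the genes and 42.4% of the bright genes). Both ADX arrays were then above in 1 member (1.72%, against 5.07% and 2.1%). With quantile normalization 8 had them below (13.8%, against 13.7% and 12%) and 10 above (17.2%, against 14.9% and 15.4%).

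Complex I oxidises NADH and is the largest complex of the chain. Over its 24 members Present on all arrays, the median log2 difference between ZT14 and ZT2 was -0.02 in ADX and -0.06 in sham, and 13 of 24 were lower at ZT14 in ADX and 17 of 24 in sham, beside 57.6% and 59.2% of the bright genes. Over the 3889 genes these shares were 49.9% and 51.6%. Ndufs3, a subunit of the arm that faces the matrix, had the highest mean day-night difference of the complex, with 808 and 836 units on the ZT14 arrays of ADX and sham mice, against 689 and 739 on their ZT2 arrays. Both its ZT14 arrays were above both ZT2 arrays, by 0.23 in ADX and 0.18 in sham on the log2 scale. Ndufv3, an accessory subunit beside the NADH site, had the lowest, with 172 and 175 units on the ZT14 arrays of ADX and sham mice, against 202 and 212 on their ZT2 arrays, differences of -0.23 and -0.27. The flavin-carrying subunit Ndufv1, which binds NADH, had 719 and 702 units at ZT14 and ZT2 in ADX mice, against 636 and 621 in sham mice, so its ADX arrays were the higher pair and the times nearly equal. Ndufs1, the large iron-sulphur subunit, ranged over 1.04-fold only, between 230.0 units on ADX ZT14 and 240.2 on sham ZT2.

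Ndufb3, an accessory subunit of the membrane arm of complex I, was the only member among the 2 lowest in both ADX against sham comparisons. It had 173 units on the ADX ZT14 array and 168 on ADX ZT2, against 229 on sham ZT14 and 218 on sham ZT2. Both ADX arrays were below both sham arrays, and the differences were -0.40 at ZT14 and -0.37 at ZT2, while ZT14 and ZT2 differed by 0.04 in ADX and 0.07 in sham. In the additive limma fit its operation effect was -0.39 ± 0.15 (SE), with a 95% interval of -0.82 to 0.04 and an adjusted p of 0.83 over all probe sets, and it did not pass. Ndufc1, another membrane arm subunit, had 224 and 202 units at ZT14 and ZT2 in ADX mice, against 241 and 258 in sham mice, again with both ADX arrays below both sham arrays and differences of -0.11 at ZT14 and -0.36 at ZT2. Ndufb11, also of the membrane arm, ran the other way, with 0.21 and 0.17. Members of 1 complex thus did not share a direction in ADX against sham.

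Ndufa2 and Ndufb7 had day-night differences of opposite sign in ADX and sham. Ndufa2, an accessory subunit, had 271 units on the ADX ZT14 array and 250.4 on ADX ZT2, against 231 on sham ZT14 and 302 on sham ZT2, which is 0.12 between ZT14 and ZT2 in ADX and -0.38 in sham. Ndufb7 had 508 units on the ADX ZT14 array and 429 on ADX ZT2, against 463 on sham ZT14 and 486 on sham ZT2, which is 0.25 in ADX and -0.07 in sham. With 1 array in each group, the difference between the operations was not tested. Signs were the same in both pairs in 70.7% of the 58 members and 63.1% of the 3889 genes. The assembly factors of complex I also differed between pairs. Ndufaf4 had 56.8 units on the ADX ZT14 array and 53.7 on ADX ZT2, against 57.8 on sham ZT14 and 43.1 on sham ZT2, lowest on the sham ZT2 array, with differences of 0.08 in ADX and 0.42 in sham. Ndufaf1 had 89.3 units on the ADX ZT14 array and 116 on ADX ZT2, against 104 on sham ZT14 and 109.6 on sham ZT2, and its ZT14 against ZT2 difference of -0.37 in ADX was 0.07 when its Absent second probe set was averaged in.

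Complex II, succinate dehydrogenase, is also an enzyme of the citric acid cycle, and its subunits went apart. Sdha, the flavoprotein that holds the active site, had 181 and 195 units on the ZT14 arrays of ADX and sham mice, against 207 and 215 on their ZT2 arrays, lower at ZT14 in both pairs, with -0.20 in ADX and -0.14 in sham. Sdhd, a membrane anchor, had 794 and 880.4 units on the ZT14 arrays of ADX and sham mice, against 701 and 737 on their ZT2 arrays, with 0.18 and 0.26, so both its ZT14 arrays were above both ZT2 arrays. The other anchor, Sdhc, had 467 units on the ADX ZT14 array and 396 on ADX ZT2, against 462 on sham ZT14 and 449 on sham ZT2, and its difference was 0.24 in ADX and 0.04 in sham. The iron-sulphur subunit Sdhb had 1005 and 1025 units at ZT14 and ZT2 in ADX mice, against 857 and 961 in sham mice, and its ADX arrays were the higher pair. The assembly factors Sdhaf1 and Sdhaf2 were lower in ADX than in sham at both times, with -0.29 and -0.15 for Sdhaf1 at ZT14 and ZT2. Sdhaf2, which attaches the flavin to Sdha, had 33.5 and 33.2 units at ZT14 and ZT2 in ADX mice, against 41.5 and 35.3 in sham mice.

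Complex III passes electrons from ubiquinol to cytochrome c. Of its 7 members, 4 were lower at ZT14 than at ZT2 in ADX and 6 in sham, with medians of -0.08 and -0.12. Lower at ZT14 were 49.9% of the 3889 genes and 57.6% of the bright genes in ADX, and 51.6% and 59.2% in sham. Uqcrq, a small subunit beside cytochrome b, had 2423 and 2534 units on the ZT14 arrays of ADX and sham mice, against 2779 and 3037 on their ZT2 arrays, lower at ZT14 in both pairs, with differences of -0.20 and -0.26. Uqcrc2, a core subunit, had -0.19 in ADX and -0.26 in sham, while the other core subunit Uqcrc1 had 0.16 and 0.04. The level of Uqcrc1 was 764 and 683 units at ZT14 and ZT2 in ADX mice, against 756 and 734 in sham mice. Cycs, cytochrome c itself, carries electrons between complexes III and IV and had 74.3 and 85.9 units on the ZT14 arrays of ADX and sham mice, against 64.3 and 70.3 on their ZT2 arrays. It was higher at ZT14 in both pairs, by 0.21 in ADX and 0.29 in sham, and its time effect in the additive fit was 0.25 ± 0.16 (SE, limma adjusted p = 0.537).

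Complex IV reduces oxygen to water, and 7 of its members were Present on all arrays. At ZT14, 5 of the 7 were lower than at ZT2 in ADX, where 57.6% of the bright genes were lower, and 5 of the 7 in sham, where 59.2% were, with medians of -0.13 and -0.14. Over the 3889 genes these shares were 49.9% and 51.6%, and Cox4i1 of the 7 was not among the bright members. Of the members lower at ZT14, Cox4i1 and Cox6c turned sign when their other probe sets were averaged in. Cox4i1, the largest nuclear subunit, had 40.0 and 45.3 units on the ZT14 arrays of ADX and sham mice, against 52.5 and 54.3 on their ZT2 arrays, with -0.39 in ADX and -0.26 in sham. Its time effect in the additive fit was -0.33 ± 0.16 (SE, limma adjusted p = 0.466), and averaging in its second probe set, Absent on all arrays, turned the differences to 0.01 and 0.12. Cox6c had 962 and 1190.5 units on the ZT14 arrays of ADX and sham mice, against 1250.0 and 1316 on their ZT2 arrays, with -0.38 and -0.14. A second Cox6c probe set that was Present on all arrays had 69.8 and 70.5 units on the ADX and sham ZT14 arrays against 56.6 and 46.6 at ZT2, a difference of 0.30 in ADX and 0.60 in sham, so the probe sets of this gene disagree in sign. The Cox6c average also holds a dim probe set that was Absent on all arrays, with differences of 1.31 in ADX and 0.89 in sham. Both named Cox4i1 and Cox6c probe sets carry the suffix f, for probes that can match several related sequences, as do 12 of the 58 members in all. The others are Atp5d, Atp5g2, Atp5md, Cox6a1, Ndufa3, Ndufb2, Ndufb5, Sdhaf1, Uqcrb and Uqcrc2.

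Other members of complex IV had other patterns. Cox7a2l had 268 and 246 units on the ZT14 arrays of ADX and sham mice, against 244 and 233 on their ZT2 arrays, the highest mean day-night difference of the group named Cox, with 0.13 in ADX and 0.08 in sham. Cox6a1 was lower in ADX at both times, with differences of -0.21 at ZT14 and -0.21 at ZT2. Cox5b, a subunit on the matrix side, had 609 units on the ADX ZT14 array and 555 on ADX ZT2, against 610.5 on sham ZT14 and 668 on sham ZT2, with its highest value on the sham ZT2 array.

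The ATP synthase had medians of 0.01 in ADX and -0.05 in sham over its 11 members Present on all arrays. Atp5a1, the alpha subunit of the catalytic head, ranged over 1.05-fold, with 1771 and 1759 units at ZT14 and ZT2 in ADX mice, against 1794 and 1853 in sham mice, one of the steadiest members. Atp5c1, the central stalk, had 1162 and 1176 units on the ZT14 arrays of ADX and sham mice, against 1340.3 and 1396 on their ZT2 arrays, lower at ZT14, with differences of -0.21 and -0.25. A second Atp5c1 probe set, Present on all arrays, gave 0.03 and 0.20 for the same differences and so did not share the sign. For Atp5d, ADX against sham was 0.07 at ZT14 and 0.19 at ZT2. Of its other probe sets Present on all arrays, 1 gave 0.12 and -0.20 and 1 gave -0.10 and 0.06, so the signs disagree. Atp5e, a small subunit of the stalk, had the lowest mean day-night difference, with 569 and 497 units on the ZT14 arrays of ADX and sham mice, against 624 and 646 on their ZT2 arrays, and differences of -0.13 and -0.38. Atp5g2, a gene for the membrane ring subunit c, had the highest, with 74.2 and 70.7 units on the ZT14 arrays of ADX and sham mice, against 71.3 and 59.9 on their ZT2 arrays, and its sham difference of 0.24 was -0.06 when an Absent probe set was averaged in. Atp5md, a small membrane subunit linked to dimers of the synthase, had 1542 units on the ADX ZT14 array and 1377 on ADX ZT2, against 1531 on sham ZT14 and 1910.4 on sham ZT2. Its sham ZT2 array stood above the other 3, so it differed by -0.47 between ADX and sham at ZT2 but by 0.01 at ZT14. With unscaled signals this ZT2 difference passed 1.5-fold.

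**Figure D3:**
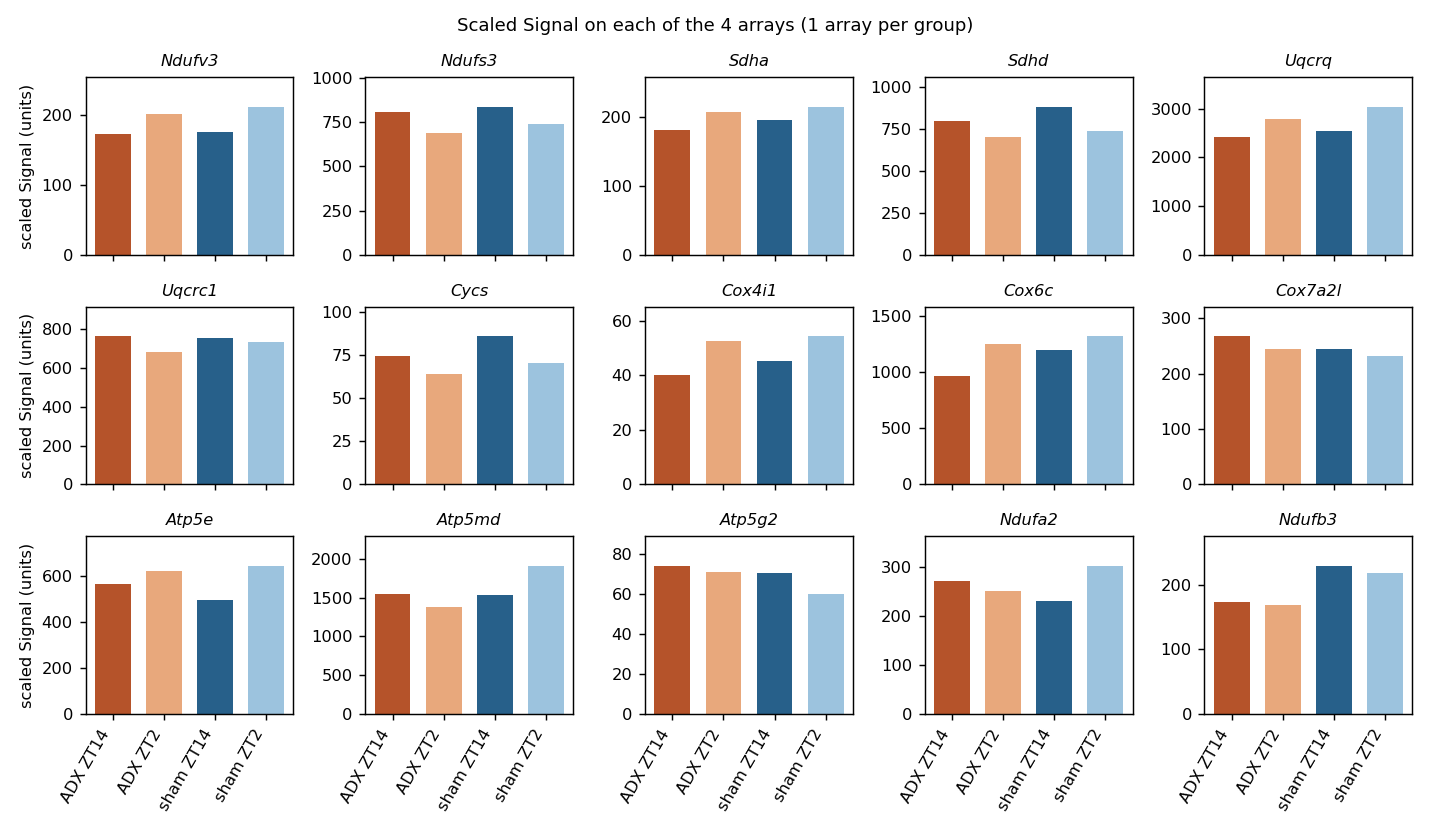
Scaled Signal (vertical axes, units, each from 0 and with its own range) of 15 named members on the 4 arrays, 1 bar per array and no error bars because each group has 1 array. Ndufb3 is lower on both ADX arrays (173 and 168 units, against 229 and 218 on sham), Cycs, Ndufs3 and Sdhd are higher on both ZT14 arrays, and Atp5md stands out on the sham ZT2 array (1910.4 units).

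The ADX and sham pairs share no array, so their day-night differences can be set side by side. In the 58 members the difference had the same sign in both pairs in 41 (70.7%), with 26 lower and 15 higher at ZT14 in both, against 63.1% of the 3889 genes. Across the 58 genes, which are not independent replicates and share the scaling of each array, Pearson's r was 0.46 and Spearman's rho 0.51. The same values over all 3889 genes were 0.49 and 0.37, and Pearson's r was 0.43 over the bright members and 0.67 over the bright genes. For the bright members the same sign was seen in 31 of 45 (68.9%), against 67.7% of the bright genes. The ZT14 and ZT2 pairs of the operation also share no array. There 37 of 58 members had the same sign (63.8%), against 53.2% of the genes, with r of 0.30 over the members and 0.09 over the genes. Of the bright members 27 of 45 (60%) had the same sign, against 55.3% of the bright genes, with r of 0.24 and 0.11.

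**Figure D4:**
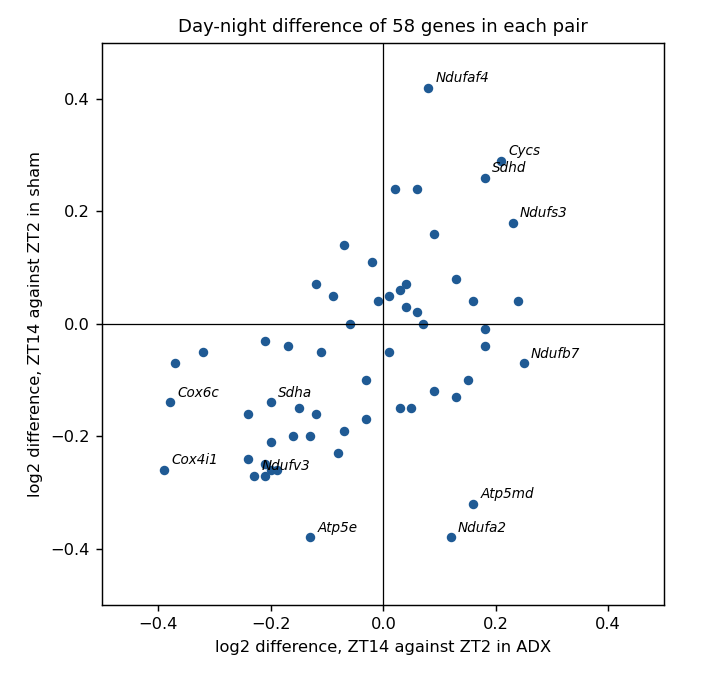
Log2 difference between ZT14 and ZT2 in ADX (horizontal axis) and in sham (vertical axis) for the 58 members Present on all arrays, 1 point per gene. Of the 58, 41 have the same sign in both pairs, Cycs, Sdhd and Ndufs3 lie at the upper right, Cox4i1 and Cox6c at the left, and Atp5md and Ndufa2 lie at the lower right, higher at ZT14 in ADX and lower in sham.

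A limma model with additive terms for time and operation gave each member a standard error. The model took in the 5872 probe sets with at least 2 Present calls and has 1 residual degree of freedom. The 2 arrays of a time or operation serve as its samples, so its p-values cover no more than the spread among these 4 arrays. Its residual is the gap between the day-night differences of ADX and sham mice, and holds no spread within a group. The variances of all probe sets are drawn toward a shared value by limma, so these are not errors measured for each member alone. Among the 58 members Present on all arrays they ran from 0.15 to 0.2, with 0.15 for Ndufs1, whose range was 1.04-fold. After Benjamini-Hochberg adjustment over all probe sets, 0 of 61 members passed 0.05 for time, where 0.0341% of probe sets did (2 of 5872), and 0 for operation, where 0% did. At an unadjusted p under 0.05 there was 1 member for time (Cox6b2, lower at ZT14 in both pairs, adjusted p = 0.32 by limma), against 13.2% of probe sets, and 0 for operation, against 5.6%. The median standard error of a member Present on all arrays was 0.16 on the log2 scale. The 95% intervals of those 58 members all lay within 2-fold for both effects, with time effects between -0.76 and 0.74 and operation effects between -0.82 and 0.63 at their outer bounds. The widths of these intervals rest on the shared variance and not on replicates of a group. Within 1.5-fold lay 33 of 58 intervals for time and 43 for operation. The lack of a call therefore does not show that the other members were equal in these groups at that size.

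The promoters of members at the ends of the day-night order were searched for sites of factors known for this gene class, for the clock and for glucocorticoids. RefSeq windows of 250 bases before to 50 bases after the gene start (GRCm38.p6) were found for 61 of the 74 members, in 66 windows, since some genes have several starts. The windows of the members with the highest and lowest mean day-night difference in complexes I, II and V are shown. Capitals mark matches to GCGCA, any base and GCGC, the site of NRF1, to CCGGAAG, the core bound by GABP and other ETS factors, or to AAGATGGC, the site of YY1, on either strand. The CCGGAAG core reads CTTCCGG where it lies on the opposite strand. Ndufs3 (chr2:90904672-90904971 on the minus strand) and Ndufv3 (chr17:31519865-31520164 on the plus strand) are the highest and lowest of complex I.
Ndufs3: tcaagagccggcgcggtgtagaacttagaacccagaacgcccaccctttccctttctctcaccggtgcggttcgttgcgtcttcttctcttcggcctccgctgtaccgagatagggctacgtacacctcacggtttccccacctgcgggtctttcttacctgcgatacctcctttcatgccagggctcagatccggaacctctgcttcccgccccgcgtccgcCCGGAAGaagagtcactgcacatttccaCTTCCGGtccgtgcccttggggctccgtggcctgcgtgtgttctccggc
Ndufv3: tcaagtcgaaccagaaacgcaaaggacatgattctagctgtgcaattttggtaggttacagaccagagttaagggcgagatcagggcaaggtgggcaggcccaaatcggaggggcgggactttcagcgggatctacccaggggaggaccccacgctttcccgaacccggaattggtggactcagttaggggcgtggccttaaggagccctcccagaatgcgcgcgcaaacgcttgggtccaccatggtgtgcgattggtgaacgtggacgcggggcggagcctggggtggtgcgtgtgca
Sdhd (chr9:50603800-50604099 on the minus strand) and Sdha (chr13:74350191-74350490 on the minus strand) are the highest and lowest of complex II.
Sdhd: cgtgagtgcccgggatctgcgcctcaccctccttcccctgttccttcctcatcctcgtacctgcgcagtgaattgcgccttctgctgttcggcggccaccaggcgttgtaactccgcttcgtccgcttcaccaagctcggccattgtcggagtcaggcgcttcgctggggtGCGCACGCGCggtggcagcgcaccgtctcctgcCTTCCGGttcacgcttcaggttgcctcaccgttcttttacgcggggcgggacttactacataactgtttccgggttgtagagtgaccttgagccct
Sdha: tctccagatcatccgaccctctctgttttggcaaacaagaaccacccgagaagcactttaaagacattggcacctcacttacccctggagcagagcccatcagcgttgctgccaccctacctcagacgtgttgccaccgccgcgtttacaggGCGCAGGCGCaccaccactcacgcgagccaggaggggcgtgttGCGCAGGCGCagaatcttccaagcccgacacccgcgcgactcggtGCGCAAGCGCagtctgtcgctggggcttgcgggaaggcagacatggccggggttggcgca
Atp5g2 (chr15:102670998-102671297 on the minus strand) and Atp5e (chr2:174464052-174464351 on the minus strand) are the highest and lowest of complex V.
Atp5g2: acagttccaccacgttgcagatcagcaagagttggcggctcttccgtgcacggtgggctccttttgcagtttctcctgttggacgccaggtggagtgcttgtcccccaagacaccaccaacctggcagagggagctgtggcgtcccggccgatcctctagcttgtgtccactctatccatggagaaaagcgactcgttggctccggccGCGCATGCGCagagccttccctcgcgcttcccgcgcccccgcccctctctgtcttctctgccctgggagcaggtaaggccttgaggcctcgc
Atp5e: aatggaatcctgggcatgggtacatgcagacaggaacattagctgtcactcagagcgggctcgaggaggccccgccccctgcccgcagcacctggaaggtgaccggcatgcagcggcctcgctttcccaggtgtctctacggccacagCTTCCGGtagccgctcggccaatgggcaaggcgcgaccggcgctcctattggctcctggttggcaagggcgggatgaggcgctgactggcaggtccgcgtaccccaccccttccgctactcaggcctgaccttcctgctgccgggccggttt

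Members higher and lower at ZT14 both carried matches. Of those higher at ZT14 in both pairs, Ndufs3 held 2 matches to the GABP core, Sdhd held 1 NRF1 and 1 GABP match, and Atp5g2 held 1 NRF1 match. Sdha, lower at ZT14 in both pairs, held 3 NRF1 matches, Atp5e held 1 GABP match, and Ndufv3 held none in this window. Among all members the NRF1 letters stood in 13 of 66 windows (19.7%), against 8.42% of the windows of array genes and 4.6% of all 32851 promoter windows. The GABP core stood in 18 (27.3%, against 14.4% and 8.86%) and the YY1 letters in 8 (12.1%, against 3.73% and 2.75%). The circadian E-box CACGTG stood in 6 (9.09%, against 9.55% and 7.15%), the D-box TTATGTAA in 1 (1.52%, against 0.571% and 0.938%), and the glucocorticoid response element (GNACA, any 3 bases and TGTNC) in 0 (against 0.357% and 0.475%). No 2 motifs overlapped in a member's window. These are matches of letters and not measured binding, and no match says only that the letters are not in this window.

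Members with and without a match differed little. The 30 members Present on all arrays with an NRF1, GABP or YY1 match had median day-night differences of -0.05 in ADX and -0.05 in sham, and the 17 with none had 0.04 and 0.00. For ADX against sham the medians were -0.06 at ZT14 and -0.07 at ZT2 with a match, and 0.04 and -0.04 without. The median range over the 4 arrays was 1.21-fold with a match and 1.15-fold without.

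Other genes of the pathway were described from lists of their own. Of 7 measured genes for assembly and copper delivery, 1 passed 1.5-fold. Hccs, which attaches haem to cytochrome c, had 24.3 units on the ADX ZT14 array and 38.5 on ADX ZT2, against 39.5 on sham ZT14 and 39.0 on sham ZT2, lower on the ADX ZT14 array alone, by 1.58-fold against ADX ZT2 and by 1.62-fold against sham ZT14, where 7.25% and 5.19% of genes were at least 1.5-fold lower. Of 12 measured citric acid cycle genes, Cs, citrate synthase, was lower at ZT14 by 1.33-fold in ADX and 1.51-fold in sham. In sham 7.57% of genes were at least 1.5-fold lower. Cs had 101 and 105 units on the ZT14 arrays of ADX and sham mice, against 134 and 158 on their ZT2 arrays. No other citric acid cycle gene of that list passed 1.5-fold. The median difference of that list between ZT14 and ZT2 was 0.11 in ADX and 0.04 in sham. Of 6 measured carriers, porins and coupling proteins, Ucp1, the uncoupling protein of brown fat, passed 1.5-fold in the ADX pair from a dim signal that was Present on 1 array. It was higher at ZT14 by at least 1.97-fold, where 7.89% of genes were at least 1.5-fold higher. The adenine nucleotide carrier Slc25a5 had 171 units on the ADX ZT14 array and 117 on ADX ZT2, against 146 on sham ZT14 and 138 on sham ZT2, a difference of 0.54 between ZT14 and ZT2 in ADX. Of 6 measured genes that feed electrons to ubiquinone by other routes, 0 passed 1.5-fold, and Etfdh, which does so for fatty acid oxidation, had 197 and 216 units at ZT14 and ZT2 in ADX mice, against 250.3 and 304 in sham mice, both ADX arrays below both sham arrays.

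Several regulators of the pathway passed 1.5-fold between ZT14 and ZT2. Of 9 measured regulators, 2 were at least 1.5-fold higher at ZT14 in ADX (7.89% of genes), and 3 were higher and 1 lower in sham (8.25% and 7.57% of genes). Ppara, a nuclear receptor for fatty acids, had 208 and 202 units on the ZT14 arrays of ADX and sham mice, against 126 and 117 on their ZT2 arrays, 1.65-fold higher at ZT14 in ADX and 1.72-fold in sham. Pprc1, a coactivator of NRF1, had 23.6 and 22.9 units on the ZT14 arrays of ADX and sham mice, against 14.0 and 9.81 on their ZT2 arrays, at least 1.69-fold higher at ZT14 in ADX, where the ZT2 array was Marginal, and 2.33-fold higher in sham. Esrra, the receptor ERR alpha that binds many promoters of this class, had 88.0 and 100.4 units on the ZT14 arrays of ADX and sham mice, against 79.3 and 65.0 on their ZT2 arrays, 1.11-fold higher at ZT14 in ADX and 1.55-fold in sham. Gabpb1, a subunit of GABP, had 12.2 and 9.97 units on the ZT14 arrays of ADX and sham mice, against 15.3 and 22.5 on their ZT2 arrays, 1.26-fold lower at ZT14 in ADX and 2.26-fold in sham. For ADX against sham, 0 regulators passed 1.5-fold at either time. Ppargc1a, the coactivator PGC-1 alpha, was Absent on all 4 arrays.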

How the data were processed

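Liver RNA was measured on 4 arrays, 1 per group, with groups taken from the sample titles. The deposited values are single-array Affymetrix Signals, a linear intensity per the file headers, each with a detection call. The authors' deposited p-value of detection entered through that call alone. The array software and a scaling target, if any, were not stated in the files. The series value table held the same intensities (largest difference 0).

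Each array was scaled to a common trimmed mean (2% at each end, factors 0.925 to 1.067). Signals under 3.91 units, the median Absent signal, were raised to that floor before log2. After scaling, 66 control probe sets were removed. Symbols came from the platform annotation and were checked against RefSeq genes of GRCm38.p6 (0 changed). A fold given as "at least" sets the brighter signal against the dimmer one or the floor, whichever is higher. The additive model used limma 3.58.1 in R 4.3.3. Python 3.11.15, NumPy 2.4.6, pandas 2.3.3 and SciPy 1.17.1 served for the rest. The steps were tested on simulated data. All arrays shared 1 hybridisation day and 1 fluidics station and had a module each, so group and module cannot be told apart. The number of arrays limits the precision.

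Genes were named by rule: the members past 1.5-fold, the 2 highest and 2 lowest per comparison, the ends of each complex by mean day-night difference, members Present on no array, isoform pairs, and genes whose probe sets differ by over 0.58 (log2). Other named members were chosen after their values were seen. The members, lists and motifs were chosen with earlier results of these data known. The alternatives tried were other scalings, centrings, floors, detection filters, probe set rules and limma settings.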

Additional observations from a re-analysis of the deposited data

Results flagged for a closer look

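Atp5md and Ndufa2 had day-night differences of opposite sign in ADX and sham mice, and the pairs were at least 25% apart. No share of all genes meeting this rule stands beside these 2, so they are not read as a result about the members. Signs were the same in both pairs in 70.7% of the 58 members and 63.1% of the 3889 genes. For Atp5md the ZT14 against ZT2 difference was 0.16 in ADX and -0.32 in sham, 0.48 apart on the log2 scale. For Ndufa2 it was 0.12 in ADX and -0.38 in sham, 0.5 apart. Each group had 1 array, so this difference was not tested. In both genes the sham ZT2 array held the highest of the 4 signals, as it did in 26 of the 58 members Present on all arrays. The Atp5md probe set carries the suffix f, for probes that can match several related sequences.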

How the results depend on the processing

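With the signals as deposited the median of all genes Present on all arrays moved to -0.11 for ADX against sham at ZT14 and -0.17 at ZT2. The member medians moved with it, to -0.15 and -0.24, and 1 member (Atp5md) passed 1.5-fold at ZT2. With quantile normalization 1 member (Cox6b2) passed in sham ZT14 against ZT2. Averaging all probe sets of a gene left 1 member (Atp5j2) in the ADX day-night comparison and put 1 (Ndufaf1) past 1.5-fold for ADX against sham at ZT14, and the ADX day-night median was then 0.01. Restricting to members Present on all arrays left 0 in the ADX day-night comparison. Without a detection filter the counts were 9 for ZT14 against ZT2 in ADX, 6 in sham, 6 for ADX against sham at ZT14 and 4 at ZT2, and the added members were those Present on no array. No share of all genes under this unfiltered rule stands beside these counts, so they are not read as a result about the members. The 65 other medians and counts recomputed moved by at most 0.1 (log2) or 1.5 times, among them quantile normalization, where the median of ADX against sham at ZT14 was 0.01. Averaging all probe sets turned the sign of at least 1 difference in 9 of the 61 members, and in 6 of them (Atp5g2, Cox4i1, Cox6b2, Cox6c, Ndufa3 and Ndufaf1) a difference of at least 0.1 turned, for Cox6c to 0.41 in ADX and 0.45 in sham between ZT14 and ZT2. The Cox6c average includes a probe set that was Absent on all arrays. In the limma fits run, 0 members passed for time or operation, while the probe sets called for time went from 0 (floor doubled, or no detection filter) to 11 (no term for the operation) and 154 (variance trend), against 2 as reported. With 1 array per group no replicate could be left out, and the additive fit already takes time within each operation. Where signals lie near the floor, only bounds can be given.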
